A study of Homo sapiens with 16 samples.

Results

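The 9 genes described here, PDX1, SOX9, NKX6-1, PTF1A, ONECUT1, GATA4, GATA6, MNX1 and PROX1, encode transcription factors of pancreatic progenitors. They were listed by name, and the list and its tests were chosen with earlier results of these data known. They are 9 of the 35810 genes measured, and all 9 passed the filter on low counts that left 16705 genes for testing. RNA was sequenced in 16 libraries from day 19 pancreatic progenitors derived from SA121, a human embryonic stem cell line that carries the NGN3-GFP reporter (green fluorescent protein under the control of NEUROG3). All groups share this 1 line and genotype. There were 3 libraries of a control at 0 h and 2 of a control at 24 h given the vehicle DMSO. Latrunculin B, abbreviated LatB, was given at 0.5 µM, with 3 libraries each after 3 h, after 6 h and after 24 h and 2 after 12 h. LatB binds actin monomers and depolymerises the actin cytoskeleton. Control 0 h carries a DMSO tag in the labels, whereas the design text places it before treatment. Nothing in the labels says whether replicates were separate cultures, so p-values measure the spread between these libraries only.

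The early pancreatic bud arises from gut endoderm, and PDX1, GATA4, GATA6, ONECUT1, MNX1, PROX1, SOX9 and PTF1A act in its multipotent progenitors. As the epithelium branches, tip cells keep PTF1A and turn to the acinar fate, while trunk cells keep SOX9 and NKX6-1 and are bipotent, giving rise to duct cells and, through a pulse of NEUROG3, to endocrine cells. Several of these factors return or persist in later lineages, such as PDX1, NKX6-1 and MNX1 in beta cells and GATA4 in acinar cells.

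Library totals ran from 23609727 to 33515398 estimated reads. The labelled cell type was checked against its markers. FOXA2, a pan-endodermal factor, averaged 41.5 TPM in control 0 h, and GP2, a surface protein of pancreatic progenitors, averaged 1420 TPM there. TPM is the transcript abundance scaled for length and to one total per library. POU5F1 and NANOG, which define pluripotent cells, averaged 1.40 and 0.213 TPM, but LIN28A, on the same list of 6, averaged 176 TPM, and the 6 summed to 177 to 190.5 TPM. GP2 is also counted below among the tip and acinar genes. In control 0 h the 6 liver markers summed to 1057.5 to 1311.6 TPM. There the 6 intestine markers summed to 143.74 to 166.27 TPM. The share of other endodermal cells in these libraries was not tested. One library stood apart, singled out after the values were seen. LatB 12 h replicate 2 held 319 TPM summed over 8 mesenchyme markers against 47.9 to 125 TPM in the other 15 libraries, 12.2 TPM over 5 endothelial markers against 1.04 to 4.84 TPM, and 3561 TPM over 6 liver markers against 1058 to 1674 TPM. The 5 epithelium markers were low in both LatB 12 h libraries, at 3805 and 3767 TPM, against 4137 to 7025 TPM elsewhere. The part of these markers in the results at 12 h was not tested, and each gene's result at 12 h is given with and without that library. In bulk RNA, fewer cells of a type and less RNA per cell cannot be told apart.

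On the length-scaled TPM scale PDX1 averaged 147 TPM over the 16 libraries and SOX9 113 TPM, and they ranked first and second in the group means of all 6 groups. MNX1 (70.2 TPM), GATA6 (55.2 TPM), GATA4 (53.3 TPM) and NKX6-1 (52.6 TPM) followed with ranges that overlapped, and traded places between groups. In control 0 h GATA4 averaged 38.0 ± 3.03 TPM (SD, n = 3) and GATA6 59.5 ± 2.68 TPM, whereas in LatB 6 h GATA4 averaged 71.9 ± 2.83 TPM and GATA6 57.6 ± 1.68 TPM. ONECUT1 averaged 29.5 TPM and PROX1 25.3 TPM, and PROX1 stood above ONECUT1 in LatB 3 h and 6 h and below it in both controls. In LatB 24 h the group mean of PROX1 was below that of ONECUT1 (17.2 against 18.9 TPM). Replicate 2 of that group held 17.4 TPM of PROX1 against 17.1 TPM of ONECUT1. At 12 h PROX1 was below ONECUT1 in replicate 1 (19.8 against 23.0 TPM) and above it in replicate 2 (31.8 against 23.3 TPM). PTF1A was far below the rest at 0.341 TPM, with 2 to 22 estimated reads per library.

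**Figure D1:**
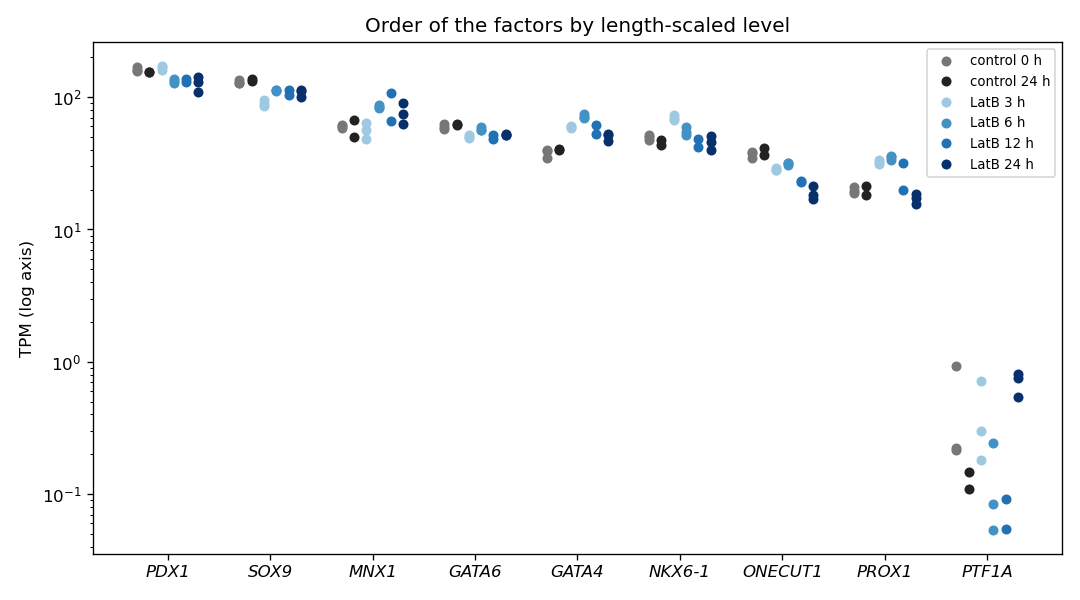
TPM (log axis) of each factor in all 16 libraries, ordered by mean TPM and coloured by group. PDX1 and SOX9 stand highest, 6 factors lie between 15.7 and 107 TPM, and PTF1A stays under 1 TPM in every library.

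Over the 6 groups all 9 genes were called in the F test for any difference, in which 69.1% of all genes tested were called, so this count is not particular to them. Calls were made by edgeR's quasi-likelihood test, where the p adjusted over all genes tested was under 0.05. Against their controls, 4 of the 9 were called at 3 h (3 higher, 1 lower), 4 at 6 h (all higher), 6 at 12 h (3 higher, 3 lower, and 3 in all without LatB 12 h replicate 2) and 5 at 24 h (3 higher, 2 lower). The background at 3 h was 16.8% of genes called higher and 14.7% lower. At 6 h it was 22.9% higher and 20.4% lower, at 12 h 19.1% higher and 16.8% lower, and at 24 h 21.9% higher and 18.8% lower. The median absolute log2 fold change of the 9 genes was 0.43 at 3 h, against 0.22 over all genes. It was 0.27 at 6 h, against 0.28, 0.29 at 12 h, against 0.27, and 0.28 at 24 h, against 0.30. The comparisons at 3, 6 and 12 h share the control 0 h libraries.

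**Figure D2:**
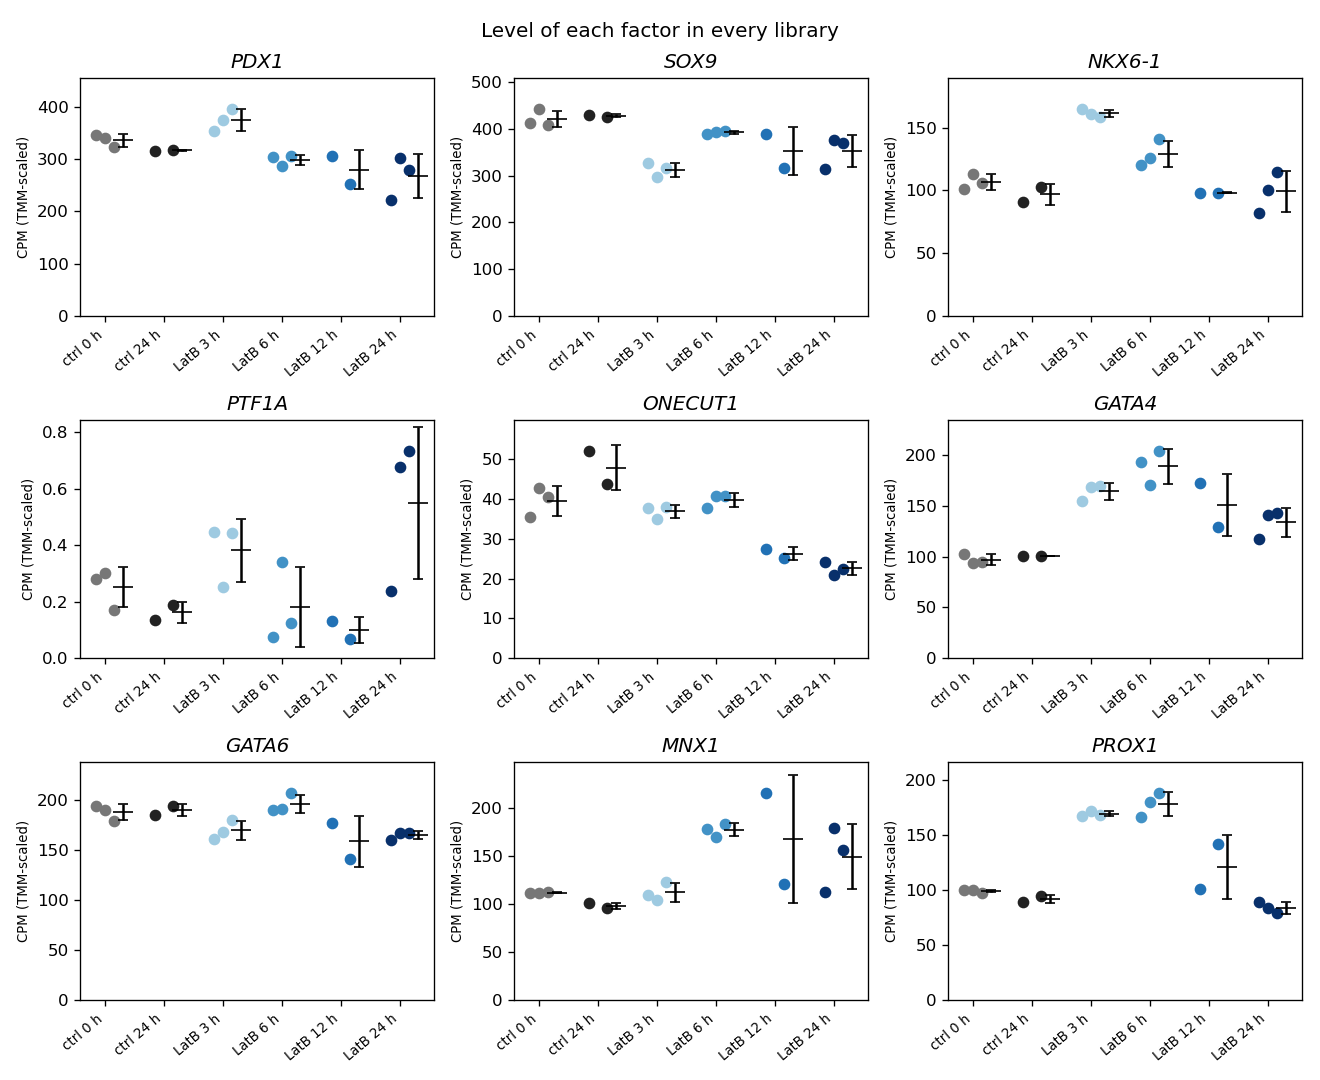
TMM-scaled counts scaled to the library total (CPM) of each factor by library and group, with the group mean and SD beside the points. The 2 libraries of LatB 12 h lie far apart for MNX1 and PROX1, and all LatB libraries lie above all control libraries for GATA4.

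Between control 24 h and control 0 h none of the 9 was called by edgeR, DESeq2 or limma. By edgeR 0.0299% of all genes were called higher and 0.221% lower, 42 genes in all, a count that was 265 by DESeq2, 2 and 7 by limma on the TPM scales and 2 to 9 by edgeR with a library left out. By edgeR, 1 of the 9 had an unadjusted p under 0.05. That gene was ONECUT1, at 35.5, 42.8 and 40.4 CPM in control 0 h and 52.0 and 43.8 CPM in control 24 h (log2 fold change 0.27, SE 0.09, edgeR unadjusted p 0.00990, adjusted p 0.324).

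PDX1, which is required for the pancreas to form and is later a beta cell factor, did not pass edgeR's test over all 16 libraries at any time against its control. PDX1 (ENSG00000139515.6, chromosome 13, 27920000 to 27926313, plus strand) was at 345, 341 and 322 CPM in control 0 h and at 316 and 317 CPM in control 24 h. It was at 354, 375 and 395 CPM in LatB 3 h and at 303, 288 and 306 CPM in LatB 6 h. All 3 libraries at 3 h lay above the controls and all 3 at 6 h below them. It was at 307 and 253 CPM in LatB 12 h and at 222, 302 and 279 CPM in LatB 24 h. Its log2 fold changes were 0.16, -0.17, -0.26 and -0.24 at 3, 6, 12 and 24 h (SE 0.10 to 0.11; edgeR adjusted p 0.247, 0.176, 0.0721 and 0.0880). Without LatB 12 h replicate 1 the 12 h value was called (-0.41, edgeR adjusted p 0.0209), and without replicate 2 it was -0.13 (edgeR adjusted p 0.460). Without LatB 24 h replicate 2 the 24 h value was called (-0.34, edgeR adjusted p 0.0243). On the log2(TPM + 1) scale PDX1 was called lower at 6, 12 and 24 h (-0.28, -0.27 and -0.29, limma adjusted p 0.0105, 0.0281 and 0.0186). At 6 h edgeR also called it lower with the compared groups alone (-0.17, edgeR adjusted p 0.00935) and with no scaling (-0.26, edgeR adjusted p 0.0306). DESeq2 called the 12 h value (-0.26, DESeq2 adjusted p 0.0491). Set against control 0 h, the 24 h value was called (-0.33, edgeR adjusted p 0.0142). Under the drug itself PDX1 fell from 3 h to 6 h by 0.33 on the log2 scale (edgeR adjusted p 0.0271, SE 0.10). That call was lost without LatB 3 h replicate 2 or 3 and without any 1 library of LatB 6 h (edgeR adjusted p 0.0590 to 0.0967).

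SOX9, which keeps progenitors undifferentiated and later marks duct cells, fell at 3 h, did not pass the test at 6 h and was called lower at 12 and 24 h. SOX9 (ENSG00000125398.8, chromosome 17, 72121020 to 72126416, plus strand) was at 413, 442 and 409 CPM in control 0 h and at 326, 297 and 316 CPM in LatB 3 h. These groups did not overlap, and the log2 fold change was -0.43 (edgeR adjusted p 0.000862, SE 0.08), called under every alternative. At 6 h SOX9 was at 388, 394 and 395 CPM, still below all 3 control 0 h libraries (log2 fold change -0.10, edgeR adjusted p 0.315, SE 0.08), and on the log2(TPM + 1) scale this was called (-0.21, limma adjusted p 0.0116). The rise from 3 h to 6 h was itself called (0.33, edgeR adjusted p 0.00872, SE 0.08). At 24 h it was at 314, 375 and 371 CPM against 430 and 426 CPM in control 24 h. It fell by 0.28 on the log2 scale (edgeR adjusted p 0.0198, SE 0.09), a call lost without LatB 24 h replicate 1 (-0.20, edgeR adjusted p 0.0674) or without control 24 h replicate 1 or 2 (edgeR adjusted p 0.104 and 0.0728). At 12 h SOX9 was at 389 and 317 CPM (-0.26, edgeR adjusted p 0.0346, SE 0.09), which became -0.12 (edgeR adjusted p 0.352) without replicate 2 of that group. The 12 h call was also lost without any 1 library of control 0 h (edgeR adjusted p 0.0515 to 0.0825).

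GATA4 and GATA6 are zinc finger factors with overlapping roles in the pancreatic bud. GATA4 (ENSG00000136574.19, 7 exons in its leading transcript) rose at every time. It was at 103, 93.4 and 94.8 CPM in control 0 h and at 100.4 and 100.3 CPM in control 24 h. It reached 155, 169 and 170 CPM at 3 h and 194, 171 and 204 CPM at 6 h. The 11 LatB libraries all lay above the 5 control libraries. The log2 fold changes were 0.76 at 3 h (edgeR adjusted p 0.000101, SE 0.10), 0.96 at 6 h (edgeR adjusted p 9.42e-06, SE 0.10) and 0.64 at 12 h (edgeR adjusted p 0.000807, SE 0.11), and these calls held under every alternative. At 12 h the libraries stood at 173 and 130 CPM, and without replicate 2 the value was 0.83 (edgeR adjusted p 0.000114). At 24 h GATA4 was at 117, 142 and 143 CPM, with a log2 fold change of 0.42 (edgeR adjusted p 0.0114, SE 0.12). That call was lost with either control 24 h library left out, where the change was the same size (0.42 both times, edgeR adjusted p 0.0713 without replicate 1 and 0.0589 without replicate 2). GATA4-205, 1 of 8 transcripts of the gene, took 24.4% of its TPM (933 reads) in LatB 6 h replicate 2 and 0 reads in the other 15 libraries, while the TPM of the whole gene in that library, 69.5, lay near the 71.3 and 75.0 of its group. From 6 h to 24 h under the drug GATA4 fell by 0.50 on the log2 scale (edgeR adjusted p 0.00191, SE 0.10).

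GATA6 (ENSG00000141448.11, chromosome 18, 22169589 to 22202528, plus strand) varied least of the 9. Its highest group mean was 196 ± 9.26 CPM in LatB 6 h (SD, n = 3) and its lowest 159 ± 25.6 CPM in LatB 12 h (SD, n = 2), a ratio of 1.23. It was at 195, 190 and 180 CPM in control 0 h and at 161, 168 and 180 CPM in LatB 3 h (log2 fold change -0.15, edgeR adjusted p 0.142, SE 0.07). Limma on either log2 TPM scale called the 3 h value (-0.24 on both scales, limma adjusted p 0.00392 and 0.00441). At 6 h the libraries of GATA6 stood at 191, 191 and 207 CPM and the change was 0.06 (edgeR adjusted p 0.544, SE 0.07). GATA6 was called lower at 12 h, at 177 and 141 CPM (-0.25, edgeR adjusted p 0.0314, SE 0.08), but not without replicate 2 (-0.09, edgeR adjusted p 0.379) nor without control 0 h replicate 1 or 2 (edgeR adjusted p 0.0819 and 0.0573). At 24 h it was at 160, 168 and 167 CPM against 186 and 194 CPM, with no overlap and no call by edgeR (-0.20, edgeR adjusted p 0.0589, SE 0.08). DESeq2 called it (-0.21, DESeq2 adjusted p 0.0362), as did limma on the log2(TPM + 1) scale (-0.25, limma adjusted p 0.00473). From 6 h to 24 h under the drug it fell by 0.25 on the log2 scale (edgeR adjusted p 0.0149, SE 0.07), a call lost without LatB 6 h replicate 3 (edgeR adjusted p 0.0628) and on the log2(TPM + 1) scale (-0.14, limma adjusted p 0.0525).

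PTF1A, the factor of tip cells and of the acinar fate, was at the edge of detection. PTF1A (ENSG00000168267.7, chromosome 10, 23192312 to 23194245, plus strand) had 7, 9 and 4 reads in control 0 h, 4 and 6 in control 24 h, 14, 7 and 13 in LatB 3 h, 2, 9 and 3 in LatB 6 h, 3 and 2 in LatB 12 h and 7, 22 and 22 in LatB 24 h. The LatB 24 h libraries lay at 0.239, 0.675 and 0.732 CPM and control 24 h at 0.136 and 0.188 CPM. The log2 fold change was 1.73 (edgeR adjusted p 0.0375, SE 0.62). The call was lost in DESeq2 (DESeq2 adjusted p 0.0669), with no filter on low counts (edgeR adjusted p 0.0593) and without LatB 24 h replicate 2 or 3 (1.56 and 1.48, edgeR adjusted p 0.0922 and 0.108) or either control 24 h library (edgeR adjusted p 0.207 and 0.107). At 12 h the change was -1.35 (edgeR adjusted p 0.176, SE 0.74) and -0.92 without replicate 2 (edgeR adjusted p 0.513), and at 3 and 6 h it was 0.59 and -0.47 (SE 0.53 and 0.59, edgeR adjusted p 0.444 and 0.562), not detectable at this depth. From 6 h to 24 h under the drug PTF1A rose by 1.58 (edgeR adjusted p 0.0347, SE 0.54), with groups that overlapped. That call was lost in DESeq2 (DESeq2 adjusted p 0.0612) and without LatB 6 h replicate 1 or 3 or LatB 24 h replicate 2 or 3 (edgeR adjusted p 0.102 to 0.128).

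ONECUT1, also called HNF6, acts upstream of PDX1 in the bud and is needed for NEUROG3 to be switched on, after which it is lost from endocrine cells. It did not pass edgeR's test at 3 or 6 h and fell at 12 and 24 h. ONECUT1 (ENSG00000169856.9, chromosome 15, 52755053 to 52791078, minus strand) was at 37.8, 35.0 and 38.0 CPM in LatB 3 h and at 37.6, 40.8 and 40.7 CPM in LatB 6 h, within the span of control 0 h apart from 1 library at 3 h. It was at 27.4 and 25.1 CPM in LatB 12 h and at 24.2, 21.0 and 22.4 CPM in LatB 24 h, below every control library. The log2 fold change was -0.10 at 3 h (edgeR adjusted p 0.401, SE 0.08) and 0.01 at 6 h (edgeR adjusted p 0.968, SE 0.08). It was -0.59 at 12 h (edgeR adjusted p 0.000369, SE 0.10) and -1.09 at 24 h (edgeR adjusted p 2.58e-06, SE 0.09), and both of these held under every alternative. Against control 0 h the 24 h value was -0.81 (edgeR adjusted p 9.00e-06), and without LatB 12 h replicate 2 the 12 h value was -0.53 (edgeR adjusted p 0.00534). On the log2(TPM + 1) scale the early values were called lower, at -0.36 for 3 h and -0.22 for 6 h (limma adjusted p 0.00415 and 0.0435). EdgeR also called the 3 h value lower with the length offset (-0.30, edgeR adjusted p 0.0159) and against control 24 h (-0.375, edgeR adjusted p 0.00677). Against control 24 h it called the 6 h value lower too (-0.27, edgeR adjusted p 0.03).

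The table held 4 ONECUT1 transcripts, which take different shares of reads and of TPM. ONECUT1-201, the coding transcript of 2092 bases and 2 exons, carried 84.3% of the reads but 57.0% of the TPM. ONECUT1-203, 583 bases with no coding sequence defined, carried 7.31% of the reads (42.3 to 120 per library) but 32.9% of the TPM. Its TPM averaged 15.5 ± 0.173 in control 0 h (SD, n = 3), 11.1 ± 0.688 in control 24 h (SD, n = 2), 9.04 ± 1.23 in LatB 3 h (SD, n = 3) and 6.11 ± 0.758 in LatB 24 h (SD, n = 3). ONECUT1-204, a transcript of 5 exons annotated as a target of nonsense-mediated decay, went the other way. It held 1.53 to 2.38% of the gene's TPM in the 5 control libraries and 4.17 to 11.8% in the 11 LatB libraries, with no overlap. It averaged 0.652 ± 0.0965 TPM in control 0 h (SD, n = 3), 3.37 ± 0.249 TPM in LatB 6 h (SD, n = 3) and 1.48 ± 0.390 TPM in LatB 24 h (SD, n = 3), from 16.9 to 126 reads per library. This transcript was singled out after its values were seen, and no test was run on it.

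**Figure D3:**
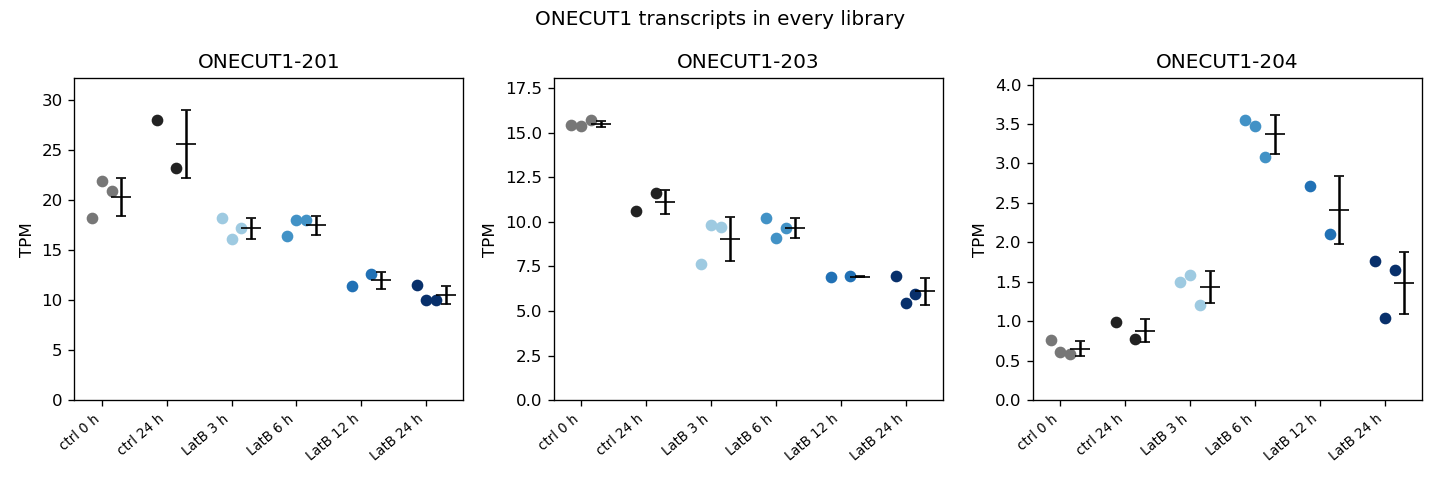
TPM of 3 of the 4 ONECUT1 transcripts in every library, with the group mean and SD beside the points. ONECUT1-201 and ONECUT1-203 have their lowest group means in LatB 24 h, whereas ONECUT1-204 peaks in LatB 6 h.

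Promoter windows are shown for the 2 genes with the smallest p in the F test among those whose windows were used, since one fell late and the other rose early. RefSeq windows (GRCh38.p14, 250 bases before to 50 after the start) were used for 4 of the 9 genes: ONECUT1, NKX6-1, GATA6 and MNX1, the last with 2 windows. Windows of PDX1, SOX9, PTF1A, GATA4 and PROX1 were not analysed here. The ONECUT1 window is chr15:52790287-52790586 on the minus strand, and its start lies 742 bases inside the gene as GENCODE draws it. The NKX6-1 window is chr4:84499243-84499542 on the minus strand, and its start matches that of the GENCODE gene. Both run 5′ to 3′ on the gene's strand, with CCAAT or its reverse complement in capitals.
ONECUT1: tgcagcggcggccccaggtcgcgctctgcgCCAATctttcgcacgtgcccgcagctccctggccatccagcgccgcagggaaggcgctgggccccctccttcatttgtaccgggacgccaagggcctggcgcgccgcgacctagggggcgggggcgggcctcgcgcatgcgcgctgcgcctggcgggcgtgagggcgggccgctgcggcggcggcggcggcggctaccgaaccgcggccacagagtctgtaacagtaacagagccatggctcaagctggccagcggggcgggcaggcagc
NKX6-1: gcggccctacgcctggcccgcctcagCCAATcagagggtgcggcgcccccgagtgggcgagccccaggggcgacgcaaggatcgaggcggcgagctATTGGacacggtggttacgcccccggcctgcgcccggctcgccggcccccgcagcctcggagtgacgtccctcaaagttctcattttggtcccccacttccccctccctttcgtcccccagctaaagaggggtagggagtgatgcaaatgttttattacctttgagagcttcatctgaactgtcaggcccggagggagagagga
CCAAT was found once in the ONECUT1 window, 220 bases before the start, and in the NKX6-1 window 224 bases before it and, as the reverse complement, 154 bases before it. Of the 5 windows 4 held CCAAT on either strand, against 34.6% of all 35116 windows of this length. GGAATG, the letters bound by TEAD factors, was in none of the 5 windows (4928 of all windows held it), nor was TATAAA (11.5%). CC and GG spaced by 6 bases, the outer letters of the SRF site, were in 4 of the 5 (78.2% of all windows). GC content was 75.0% for ONECUT1 and 65.0% for NKX6-1, against a median of 58.7% over all windows.

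NKX6-1, which represses the acinar program and is kept in trunk and beta cells, rose early and briefly. NKX6-1 (ENSG00000163623.10, chromosome 4, 84491985 to 84499292, minus strand) was at 101, 113 and 106 CPM in control 0 h and at 164, 161 and 159 CPM in LatB 3 h, with no overlap. The log2 fold change was 0.60 (edgeR adjusted p 0.000413, SE 0.10) and held under every alternative. At 6 h the libraries stood at 121, 126 and 141 CPM and the change was 0.27 (edgeR adjusted p 0.0360, SE 0.10). This call was lost without any 1 library of control 0 h (edgeR adjusted p 0.0516 to 0.112), without LatB 6 h replicate 2 or 3 (edgeR adjusted p 0.0781 and 0.194) and on the TPM scales (0.14, limma adjusted p 0.244 on both). At 12 h it was at 98.3 and 98.2 CPM, and at 24 h at 82.3, 101 and 115 CPM against 91.2 and 103 CPM. The changes were then -0.12 (edgeR adjusted p 0.429, SE 0.11, and -0.12 with adjusted p 0.575 without LatB 12 h replicate 2) and 0.03 (edgeR adjusted p 0.835, SE 0.11). The fall from 3 h to 6 h (-0.32, edgeR adjusted p 0.0297, SE 0.10) was lost with 5 of 6 libraries left out in turn, the exception being LatB 6 h replicate 3 (edgeR adjusted p 0.0630 to 0.115 for the 5). That from 6 h to 24 h (-0.38, edgeR adjusted p 0.00785, SE 0.10) was kept throughout. Its leading transcript, NKX6-1-201, held 84.1% of the gene's TPM and between 79.9 and 89.1% in single libraries.

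PROX1, a homeobox factor that restrains acinar differentiation and is high in endocrine progenitors and duct cells, rose at 3 and 6 h and did not pass the test at 24 h. PROX1 (ENSG00000117707.17, chromosome 1, 213983181 to 214041510, plus strand) was at 99.9, 99.8 and 97.7 CPM in control 0 h, at 168, 172 and 169 CPM in LatB 3 h and at 167, 181 and 188 CPM in LatB 6 h. Both LatB groups lay wholly above the controls, with log2 fold changes of 0.77 (edgeR adjusted p 4.08e-05, SE 0.09) and 0.85 (edgeR adjusted p 1.24e-05, SE 0.09). At 24 h PROX1 was at 89.2, 83.4 and 78.9 CPM against 89.0 and 94.2 CPM in control 24 h, with 2 of the 3 below both controls (-0.13, edgeR adjusted p 0.356, SE 0.11). Between 6 h and 24 h of drug it fell by 1.09 on the log2 scale (edgeR adjusted p 2.68e-06, SE 0.09). At 12 h its libraries stood far apart, with 101 CPM in the first and 142 CPM in the second. The 12 h call (0.29, edgeR adjusted p 0.0424, SE 0.10) gave 0.02 (edgeR adjusted p 0.860) without replicate 2, the library with the high mesenchyme and liver markers, and was also lost without any 1 library of control 0 h (edgeR adjusted p 0.0753 to 0.0994).

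MNX1, a homeobox factor of the dorsal bud and of beta cells, rose from 6 h on and not at 3 h. MNX1 (ENSG00000130675.15, chromosome 7, 156994051 to 157010663, minus strand) was at 111, 111 and 113 CPM in control 0 h, 109, 104 and 123 CPM in LatB 3 h and 178, 170 and 183 CPM in LatB 6 h. The change was 0.01 at 3 h (edgeR adjusted p 0.986, SE 0.18) and 0.66 at 6 h (edgeR adjusted p 0.00868, SE 0.18). The step from 3 h to 6 h was also called (0.66, edgeR adjusted p 0.0185, SE 0.18), but not without LatB 3 h replicate 1 or 2 or LatB 6 h replicate 3 (edgeR adjusted p 0.0547 to 0.0615). At 12 h replicate 1 of MNX1 held 215 CPM and replicate 2 held 121 CPM. The change of 0.58 there (edgeR adjusted p 0.0338, SE 0.20) was 0.94 without replicate 2 (edgeR adjusted p 0.000941) and 0.11 without replicate 1 (edgeR adjusted p 0.665), and no call was made without any 1 library of control 0 h (edgeR adjusted p 0.0693 to 0.0830). At 24 h it was at 112, 179 and 156 CPM against 100.3 and 95.4 CPM (0.61, edgeR adjusted p 0.0289, SE 0.20). That call was lost without LatB 24 h replicate 2 or 3 (edgeR adjusted p 0.104 and 0.0705), without either control 24 h library (edgeR adjusted p 0.111 and 0.132) and on the log2(TPM + 1) scale (0.36, limma adjusted p 0.184). MNX1-201 held 52.3% of the gene's TPM, MNX1-207 25.8% and MNX1-208, a retained intron of 1 exon, 17.0%. On the CPM scale LatB 24 h replicate 1 was the lowest of its group for MNX1, PDX1, SOX9, NKX6-1, GATA4, GATA6 and PTF1A and the highest for ONECUT1 and PROX1, while by TPM it was the highest for GATA6 and PTF1A. It also had the lowest sum of its group over 13 endocrine commitment genes (81.5 TPM, against 204 and 187 TPM) and the highest over the liver markers (1674 TPM, against 1098 and 1189 TPM), and their part in the 24 h results was not tested. Without it the 24 h change was 0.77 for MNX1, 0.51 for GATA4, -1.14 for ONECUT1 and 2.09 for PTF1A, all still called (edgeR adjusted p 0.00601, 0.00430, 8.08e-06 and 0.0121), whereas SOX9 lost its call (-0.20, edgeR adjusted p 0.0674).

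**Figure D4:**
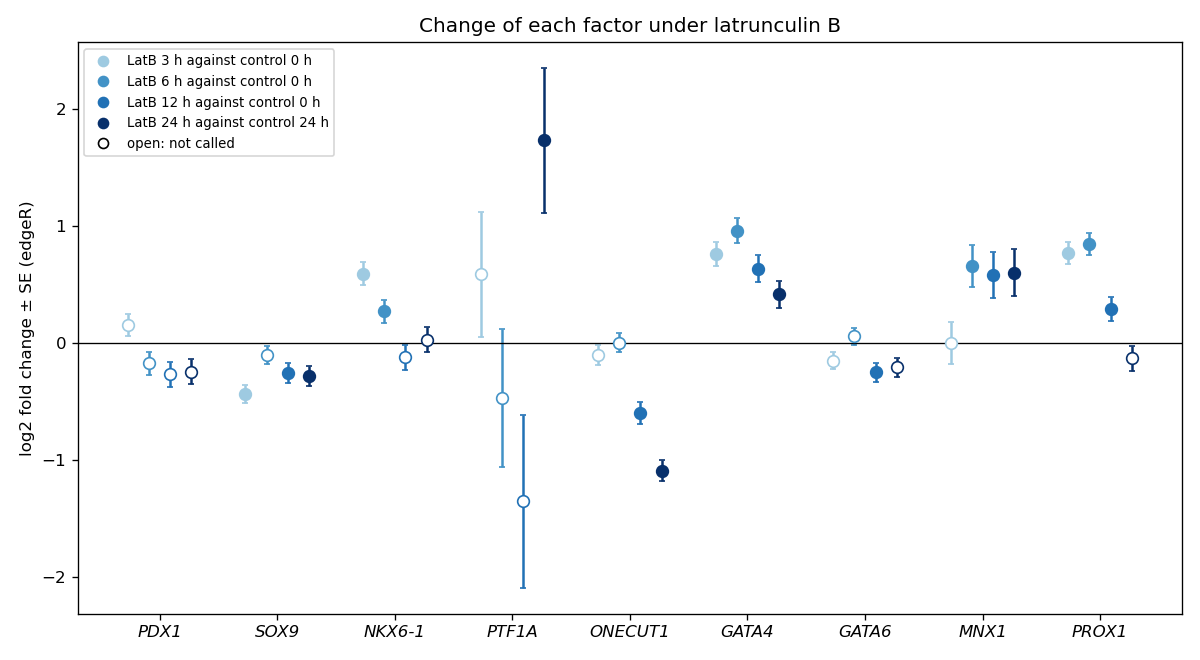
Log2 fold change (edgeR, bars are SE) of each factor at 3, 6, 12 and 24 h of LatB against its control, filled where called and open where not. GATA4 lies above 0 at all 4 times, PROX1 and NKX6-1 lie high at 3 h and near 0 at 24 h, and ONECUT1 drops to -1.09.

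Counted between drug times, 4 of the 9 were called from 3 h to 6 h, MNX1 and SOX9 higher and PDX1 and NKX6-1 lower, where 11.9% of all genes were called higher and 10.3% lower. From 6 h to 24 h, 6 of the 9 were called. These were PTF1A higher and NKX6-1, ONECUT1, GATA4, GATA6 and PROX1 lower, where 19.0% of all genes were called higher and 18.9% lower. The median log2 fold change of the 9 from 6 h to 24 h was -0.25, against 0.00 over all genes.

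The change at 24 h was then set against that at 3 h in 1 test, each relative to its own control, so that the 2 effects share no library. It was called for 3 of the 9, all in the lower direction, against 13.4% of all genes in that direction and 14.6% in the other. ONECUT1 differed by -0.99 (edgeR adjusted p 0.000113, SE 0.12), PROX1 by -0.90 (edgeR adjusted p 0.000510, SE 0.14) and NKX6-1 by -0.56 (edgeR adjusted p 0.0113, SE 0.15). The NKX6-1 call was lost without control 24 h replicate 2 (-0.47, edgeR adjusted p 0.0620). PDX1 differed by -0.40 (edgeR adjusted p 0.0545, SE 0.14) and was called without LatB 24 h replicate 2 (-0.49, edgeR adjusted p 0.0192). With all libraries kept, DESeq2 called PDX1 (-0.394, DESeq2 adjusted p 0.0283), as did edgeR with no filter (-0.405, edgeR adjusted p 0.0498). Limma called PDX1 on the log2(TPM + 1) and log2(TPM + 0.1) scales (-0.343 and -0.345, limma adjusted p 0.0484 and 0.049). For PTF1A the difference was 1.14 (edgeR adjusted p 0.326, SE 0.82). For MNX1 it was 0.60 (edgeR adjusted p 0.115, SE 0.27), which was called without LatB 24 h replicate 1 (0.77, edgeR adjusted p 0.0315). SOX9, GATA4 and GATA6 were at 0.15, -0.34 and -0.06 (edgeR adjusted p 0.358, 0.115 and 0.747).

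**Figure D5:**
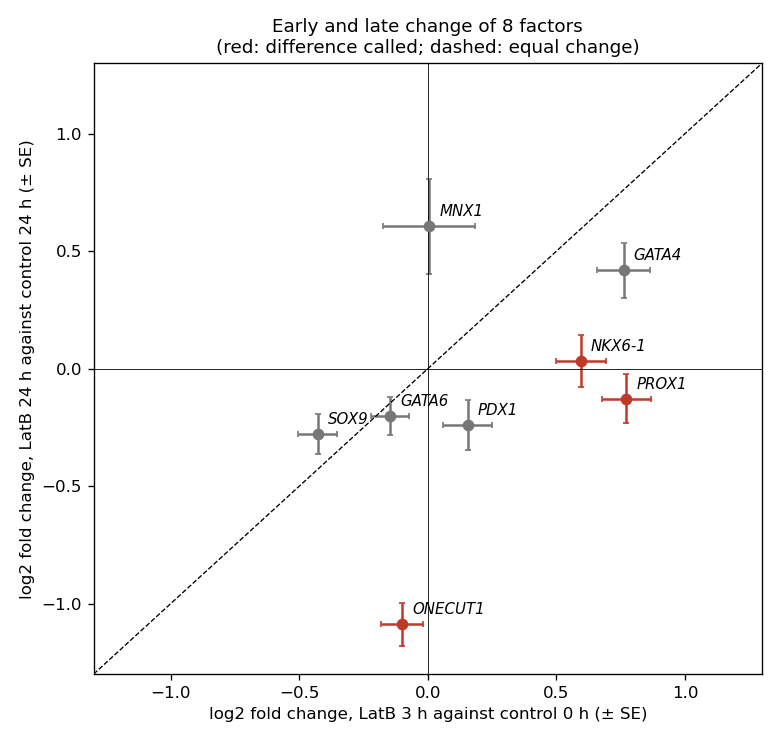
Log2 fold change at 24 h (vertical) against that at 3 h (horizontal), each relative to its own control with SE bars, for 8 factors (PTF1A, with few reads, is left out). ONECUT1, PROX1 and NKX6-1, in red, lie below the dashed line of equal change and are the factors whose difference was called.

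Other genes of the progenitor network were counted from named lists. Of 17 further progenitor and endoderm factors, 5 were called higher and 3 lower at 3 h, and 2 higher and 11 lower at 24 h, where their median log2 fold change was -0.51 against 0.01 over all genes. Among all genes tested, 16.8% were called higher and 14.7% lower at 3 h, and 21.9% higher and 18.8% lower at 24 h. ONECUT2, the paralog of ONECUT1, rose by 0.30 at 3 h (edgeR adjusted p 0.0394, SE 0.10) and fell at 24 h by 0.84 on the log2 scale (edgeR adjusted p 8.50e-05, SE 0.11). NR5A2, a nuclear receptor of progenitors and acinar cells, rose by 1.10 at 3 h (edgeR adjusted p 1.27e-05, SE 0.12) and fell at 24 h by 0.51 on the log2 scale (edgeR adjusted p 0.00738, SE 0.13). GLIS3, a zinc finger factor, rose at 3 h by 0.31 (edgeR adjusted p 0.00415, SE 0.07) and fell at 24 h by 0.78 on the log2 scale (edgeR adjusted p 1.02e-05, SE 0.08). SOX4 rose at both times, by 0.89 at 3 h (edgeR adjusted p 1.61e-07, SE 0.05) and 0.66 at 24 h (edgeR adjusted p 5.69e-06, SE 0.06).

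Among 12 trunk and duct genes, 2 were called higher and 3 lower at 3 h, and 1 higher and 4 lower at 24 h (median -0.52, against 0.01 over all genes). The shares of all genes called were 16.8% higher and 14.7% lower at 3 h, and 21.9% higher and 18.8% lower at 24 h. DCDC2, listed with the duct genes, fell at 24 h by 0.97 on the log2 scale (edgeR adjusted p 1.02e-05, SE 0.10), and KRT19, a duct keratin, rose by 0.26 (edgeR adjusted p 0.0378, SE 0.09). Of 12 tip and acinar genes 8 were tested, with 2 called higher at 3 h and 3 higher and 1 lower at 24 h (median 0.39, against 0.01 over all genes). GP2 rose by 0.60 at 24 h (edgeR adjusted p 0.0157, SE 0.18), and MYC, a proliferation factor listed with the tip genes, rose by 2.48 at 3 h (edgeR adjusted p 1.18e-05, SE 0.26) and 1.44 at 24 h (edgeR adjusted p 0.00189, SE 0.30). CELA3A, a pancreatic elastase with a near-identical copy that makes its reads uncertain, rose by 3.37 (edgeR adjusted p 0.000162, SE 0.49).

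Of 13 endocrine commitment genes, 2 were called higher at 3 h, 6 at 6 h and 6 at 24 h, and none lower at these times. The shares of all genes called higher at these times were 16.8%, 22.9% and 21.9%. At 24 h the median log2 fold change of the 13 was 1.20 against 0.01 over all genes. Between the 2 controls it was 1.44 with no gene called. Of the 13 genes, 9 stayed under 1 TPM in every control 0 h library and 6 in every control 24 h library. These medians therefore include ratios of very low levels. NEUROG3 averaged 44.9 ± 17.6 CPM in LatB 24 h (SD, n = 3) against 2.21 ± 0.199 CPM in control 24 h (SD, n = 2). NKX2-2, a factor downstream of NEUROG3, rose by 3.96 at 24 h (edgeR adjusted p 1.72e-05, SE 0.43). Summed TPM over the 13 genes was 24.8 to 30.2 in control 0 h, 50.3 to 60.2 in control 24 h and 81.5 to 204 in LatB 24 h. Over the 17 further progenitor factors it was 735 to 752, 787 to 808 and 634 to 725 in the same groups.

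Markers of other cells were counted at 24 h, where 21.9% of all genes were called higher and 18.8% lower. Of 6 pluripotency markers 2 were called lower, of 8 mesenchyme, 3 tested endothelial and 5 tested liver markers none was called, of 5 tested intestine markers 1 was called higher and 1 lower, of 3 tested stomach markers 1 higher and of 5 epithelium markers 3 lower. LIN28A, listed with the pluripotency markers, fell at 24 h by 0.76 on the log2 scale (edgeR adjusted p 2.03e-05, SE 0.08).

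The genes with the most similar course were found for the 3 factors whose group means spanned at least 1 on the log2 scale, by the root mean square difference in log2 change from control 0 h over the other 5 groups. For ONECUT1 these were TSHZ2 (0.0759), UGCG (0.0841) and ZNF711 (0.0958). For PROX1 they were TBX3 (0.0577), DST (0.0790) and ATP1B1 (0.0879). For PTF1A they were PLCB4 (0.116), BCAR1 (0.119) and AP1S3 (0.122), but PTF1A stayed at 0.0676 to 0.732 CPM, where the 0.5 CPM added before the log compresses its course. The measure is on a log2 scale and describes likeness of course only.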

How the data were processed

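RNA-seq of 16 libraries was analysed. Per the labels, the authors deposited transcript tables from Salmon 1.3.0 on hg38, with estimated counts and TPM per transcript. The study's methods describe STAR with gene counts, so upstream settings beyond the table format were not given in the sources used here. Library kits are not stated to keep strand, so antisense reads cannot be told apart, and 8 antisense neighbours of these genes were not analysed here. The authors also deposited a table of DESeq2 fold changes, standard errors and adjusted p-values, which was not used, nor were its 16 columns of per-sample values.

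Transcripts were summed to genes by GENCODE release 44 (165533 of 177456 matched, 2.92 to 3.17% of reads unmatched per library). The deposited estimated counts were summed per gene and rounded. Genes were kept by edgeR's filterByExpr, scaled by TMM (factors 0.947 to 1.05) and tested by the quasi-likelihood test in edgeR 4.0.16 over all 16 libraries, with Benjamini-Hochberg adjustment over 16705 genes. SE is the absolute log2 fold change divided by the root of F. CPM values are TMM-scaled. The deposited TPM values were used for levels between genes. Alternatives were DESeq2 1.42.0, limma 3.58.1 on log2(TPM + 1) and log2(TPM + 0.1), other scalings and filters, a length offset, a replicate block, the compared groups alone, the other control, and each library left out. Where that leaves 1 library in a group, it is assumed to vary like the others. Scripts were tested on simulated counts. All 9 genes were named in each comparison. LatB 12 h replicate 2, LatB 24 h replicate 1, GATA4-205 and ONECUT1-204 were singled out after their values were seen. The span rule for likeness was applied as first set, on log2 CPM. From each list at most 4 genes with the smallest F test p could be named (1 is not reported here), and likeness used genes with mean log2 CPM of at least 3 and a pseudocount of 0.5 CPM. The genes, lists (further progenitor factors, tip and acinar, trunk and duct, endocrine, and markers of other cells) and tests were chosen with earlier results of these data known. Depth sets the counting error, which for PTF1A is large.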

Additional observations from a re-analysis of the deposited data

Results flagged for a closer look

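Of the results above, 3 were flagged because the change under LatB at 24 h differed from that at 3 h by a test of the difference itself: ONECUT1 by -0.99, PROX1 by -0.90 and NKX6-1 by -0.56 on the log2 scale (edgeR adjusted p 0.000113, 0.000510 and 0.0113). For ONECUT1, 3 of 3 libraries lay below the control mean at 3 h, where the change was not called (-0.10, edgeR adjusted p 0.401), and 3 of 3 at 24 h. With the length offset the 3 h change of ONECUT1 was called (-0.30, edgeR adjusted p 0.0159). For PROX1, 3 of 3 libraries lay above the control mean at 3 h and 0 of 3 at 24 h. For NKX6-1 these were 3 of 3 and 2 of 3. The 2 times have different controls, and the cause of the differences was not tested.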

How the results depend on the processing

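Of 1344 values of the 9 genes under alternatives, 1197 kept direction and side of the threshold, 89 lost a call, 44 gained one, 11 uncalled values moved and 3 reversed. The 3 reversed values are all ONECUT1 at 6 h, 0.01 by edgeR, which was -0.22 in limma on log2(TPM + 1), -0.22 on log2(TPM + 0.1) and -0.27 against control 24 h. The cause was not tested. The number of the 9 called at 12 h, 6 by edgeR, was 3 with the replicate block, 2 with the compared groups alone and 2 to 6 with a library left out. The number at 24 h, 5, was 3 with the replicate block and 1 to 4 with a library left out. The number from 3 h to 6 h, 4, was 1 to 2 with a library left out. That for the difference of effects, 3, was 5 with the compared groups alone, where GATA4 and MNX1 gained calls. It was 4 by DESeq2, with no filter and in limma on both TPM scales, where PDX1 gained a call. These are counts and do not say that the called genes were the same. Deviations from the group means were correlated between libraries of different groups. With the same replicate number they ran from -0.365 to 0.181 over 36 pairs, 9 of them above 0.1, and with other numbers from -0.231 to 0.365. With groups of 2 or 3 libraries this check cannot decide whether same-number libraries shared a batch. Depth limits PTF1A, and leaving out 1 of 2 control 24 h libraries leaves fewer samples for every 24 h value.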
